A study of Huso dauricus x Acipenser schrenckii with 16 samples.

Results

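Ovaries of 2 low-yield females, low-yield 2 and low-yield 5, were set beside the ovaries of the other 6 low-yield females, numbered 1, 3, 4, 6, 7 and 8. The 2 libraries were chosen from these same expression values, because their collagen, vessel and granulosa transcripts had been seen to be high, so every difference below is a description and carries no p-value. They are 2 of the 8 low-yield libraries and 2 of the 16 libraries of the whole series. All fish were adult females of a farmed hybrid sturgeon (Huso dauricus females crossed with Acipenser schrenckii males), kept under the normal breeding conditions of 1 farm, and the labels name no agent. The low-yield fish were 1 population, ranked as giving little caviar, each library held the poly(A) RNA of 1 ovary, and ages are not given in the labels. No high-yield library was used.

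An ovary before spawning consists of oocytes, each wrapped in an egg envelope of zona pellucida proteins and in a layer of granulosa cells, with theca cells and a stroma of fibroblasts, collagen, vessels and smooth muscle around the follicles. Growing oocytes hold most of the RNA, so transcripts of the surrounding cells make up a small part of a whole-ovary library. Granulosa cells respond to follicle-stimulating hormone and make estrogen from androgen that theca cells supply under luteinizing hormone. In such bulk tissue, fewer cells of a type and less RNA per cell cannot be told apart.

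Deposited totals ran from 37362125 to 46991602 counts over the 8 libraries, with low-yield 5 highest and low-yield 2 at 45788362. Egg envelope genes, which mark ovary, took from 13.1% of the counts in low-yield 2 to 30.8% in low-yield 5, with 14.8% to 21.5% in the other 6. At least 1 count was recorded for 36856 genes in low-yield 2 and 34696 in low-yield 5, against 29417 to 31320 in the other 6. Transcripts of the mitochondrial genome took 0.929% of the counts in low-yield 5 and 0.234% in low-yield 2, against 0.0138% to 0.0816% in the others, and rows typed as ribosomal RNA took 0.224%, 0.114% and 0.0127% to 0.0506%. Both classes were thus higher in the chosen libraries, and their part in the results was not tested.

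The 2 ovaries were each unlike the other 6 and were also unlike each other. Across genes, Spearman's rho of log2(CPM + 1) was 0.853 between low-yield 2 and low-yield 5, while the 15 pairs among the other 6 lay between 0.917 and 0.969. Low-yield 2 stood at 0.842 to 0.893 with the other 6, with a median of 0.869 that exceeded its 0.853 with low-yield 5. Low-yield 5 stood at 0.790 to 0.811 with the other 6. CPM, the counts scaled to a common library total, is given here after trimmed-mean (TMM) scaling. Component 1 held 49.0% of the variance and placed low-yield 5 at 150.0 and low-yield 2 at 87.6, with the other 6 between -50.1 and -32.3. Component 2 held 17.7% and set low-yield 2 at -77.4 and low-yield 5 at 51.6, with the other 6 spread from -49.0 to 50.5.

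**Figure D1:**
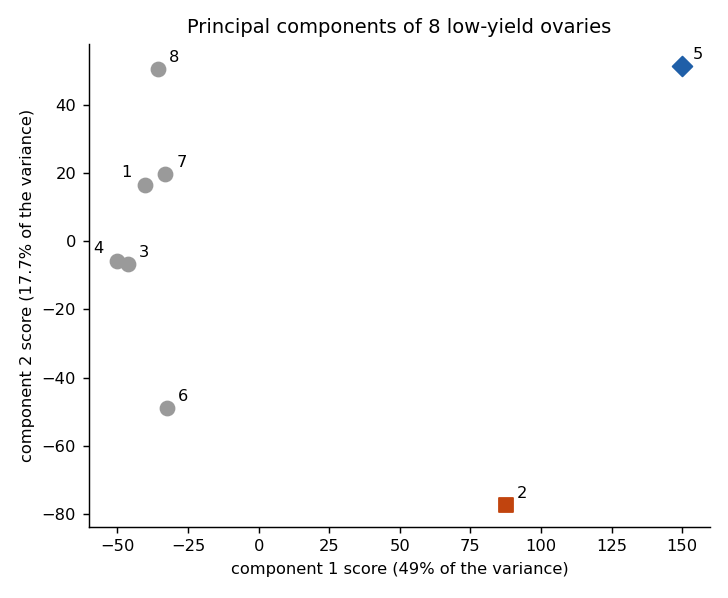
Scores of the 8 low-yield libraries on the first components of log2(CPM + 1) over the genes tested, component 1 on the horizontal and component 2 on the vertical axis, each point labelled with its female's number. Low-yield 5 (diamond) and low-yield 2 (square) lie at the right of the 6 others (circles) with low-yield 5 at the top and low-yield 2 at the bottom of the vertical axis.

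Of 41685 genes, 27082 reached a mean of 0.5 CPM over the 8 libraries, 2115 of them only through low-yield 2 and 5. A gene was called higher in both when low-yield 2 and 5 each exceeded all of the other 6 and each lay at least 1 unit above their median on the log2(CPM + 1) scale, which understates the fold of low genes. This held for 2347 genes, 8.67% of those tested, and the mirrored rule for 1229 genes, 4.54%. These shares follow from the choice of the libraries and are read as background for the lists below. Among the genes higher in both, 850 had passed the expression minimum only through the 2 ovaries. The genes higher in both had a median level of 2.46 CPM and those lower in both 33.4 CPM, against 9.42 CPM over all genes tested. In 1333 of the genes higher in both, and in 505 of those lower in both, the gap from either library to the nearest of the other 6 exceeded their whole range. Calls were unevenly spread over levels: among genes with a mean of 1 to 5 CPM 18% were higher in both and 1.07% lower, and among genes of 100 CPM and over 0.849% and 11.1%. With low-yield 5 alone set against the other 6 the rules gave 4967 and 3362 genes, and with low-yield 2 alone 3888 and 2738. Leaving out any 1 of the other 6 gave 2339 to 2667 and 952 to 1395.

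Scaling bears on these counts, because low-yield 2 had the highest TMM factor, 1.48, and low-yield 5 the lowest, 0.848. The median gene lay -0.04 log2 units from the other 6 in low-yield 2 and -0.06 in low-yield 5 after TMM. With library size alone it lay at 0.50 in low-yield 2 and -0.18 in low-yield 5, and the calls became 3021 higher and 365 lower in both, 89.2% higher against 65.6% after TMM. The split was 75.9% with median-of-ratios scaling and 90.1% with the deposited FPKM, which are scaled by gene length and depth. Of the 2347 genes higher in both, 2143 were also called with library size alone, against 320 of the 1229 lower in both. With FPKM 1242 of the 2347 and 214 of the 1229 were also called, although the number of genes higher in both, 2351, was nearly the same. The minimum of 0.5 and the added 1 were kept on the FPKM scale. There the median of the genes tested was 4.00, against 9.42 CPM, so low genes were filtered and shrunk more. The part of this in the calls lost with FPKM was not tested.

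Fibrillar and interstitial collagens, the fibres and fibre-linking chains of stroma, were higher in both ovaries for 19 of 27 rows tested and lower for 0, and 3 of the 27 had passed the minimum only through the 2 ovaries. Its median member lay 2.41 log2 units from the other 6 in low-yield 2 and 3.22 in low-yield 5. The same medians over all genes tested were -0.04 and -0.06. Collagen I alpha-1 (LOC117434956), the main fibre chain, stood at 222 CPM in low-yield 2 and 602 CPM in low-yield 5. In low-yield 1, 3, 4, 6, 7 and 8 it stood at 76.3, 11.2, 17.1, 20, 30.2 and 56 CPM, a gap the rule requires. Its log2 difference from the median of the 6 was 3.12 and 4.56. Rows for collagen I alpha-2, the partner chain, held 82.6 and 124 CPM (LOC117426870) and 78.6 and 148 CPM (col1a2), above ranges of 3.33 to 14.2 CPM and 1.7 to 15.5 CPM. Collagen XII alpha-1 (LOC117402299), which sits on collagen I fibres, had 88 and 68.9 CPM against a lowest, median and highest of 1.45, 2.74 and 3.48 CPM. Collagen VI, a beaded filament around cells, was alike, with 31.4 and 52.8 CPM for its alpha-3 chain (LOC117412744) against 0.53 to 1.93 CPM. The collagen rows together made up 0.139% and 0.145% of the counts, against 0.0108% to 0.0224% in the other 6, which puts the 2 ovaries close to each other on this unscaled share.

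Basement membrane genes, the sheet under epithelium and vessels, were higher in both for 24 of 39 rows and lower in both for 1, and 6 of the 39 had passed only through the 2 ovaries. Set against the other 6, the list had a median log2 difference of 1.83 (low-yield 2) and 1.72 (low-yield 5). Collagen IV alpha-1 (LOC117963365), its network chain, had 61.6 CPM in low-yield 2 and 26.1 CPM in low-yield 5 against 3.55 to 7.96 CPM. Nidogen-1 (LOC117403320), which links laminin to collagen IV, had 64.4 and 71.6 CPM against 18.3 to 32.9 CPM. Not every member stood apart: laminin beta-1 (LOC117415858) had 83.6 and 50.1 CPM, neither above the others' range of 54.6 to 133 CPM.

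Matrix glycoproteins and proteoglycans were higher in both for 16 of 30 rows and matrix enzymes with their inhibitors for 24 of 44, with 0 lower in both in either list. Only through the 2 ovaries had 7 of the 30 and 11 of the 44 rows passed. The medians were 1.36 in low-yield 2 and 2.16 in low-yield 5 for the first list and 1.10 and 1.63 for the second. Decorin (LOC117415452), a proteoglycan that coats collagen fibres, had 52.5 and 61.2 CPM against 4.43 to 12 CPM. Fibrillin-1 (LOC117428027), the microfibril protein, had 30.8 and 60.9 CPM against 1.39 to 6.63 CPM. The matrix protease MMP14 (LOC131709675) had 15.1 and 26.5 CPM against 1.87 to 4.31 CPM. Fibronectin was split between its rows: LOC117426324 was higher in both at 19.3 and 78.1 CPM against 3.08 to 11.1 CPM, whereas LOC117409768 had 83.7 CPM in low-yield 2, just above the others' range of 13.3 to 81.9 CPM, and 32.4 CPM in low-yield 5, inside it. Periostin (LOC117407387), a matrix protein of activated fibroblasts, had 0.603 and 3.21 CPM and lay inside the others' range of 0.333 to 3.68 CPM. Rows for collagen III alpha-1 and for SPARC were not analysed here.

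Fibroblast and mesenchyme markers were higher in both for 6 of 16 rows and lower for 0, and 5 of the 16 had passed only through the 2 ovaries. Relative to the other 6, the median member stood at 0.69 log2 units in low-yield 2 and 1.16 in low-yield 5. Vimentin (LOC117435463), the intermediate filament of mesenchyme, had 165 CPM in low-yield 2 and 148 CPM in low-yield 5 against a lowest, median and highest of 4.3, 9.02 and 23.6 CPM. The PDGF receptor beta (LOC117413283), a marker of fibroblasts and pericytes, had 4.86 and 10.6 CPM against 0 to 0.805 CPM. The summed list reached 299 and 275 CPM against 19.3 to 71.6 CPM. The name stroma-rich rests on the collagens that chose the 2 libraries, and 10 of the 16 fibroblast rows and periostin did not meet the rule.

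**Figure D2:**
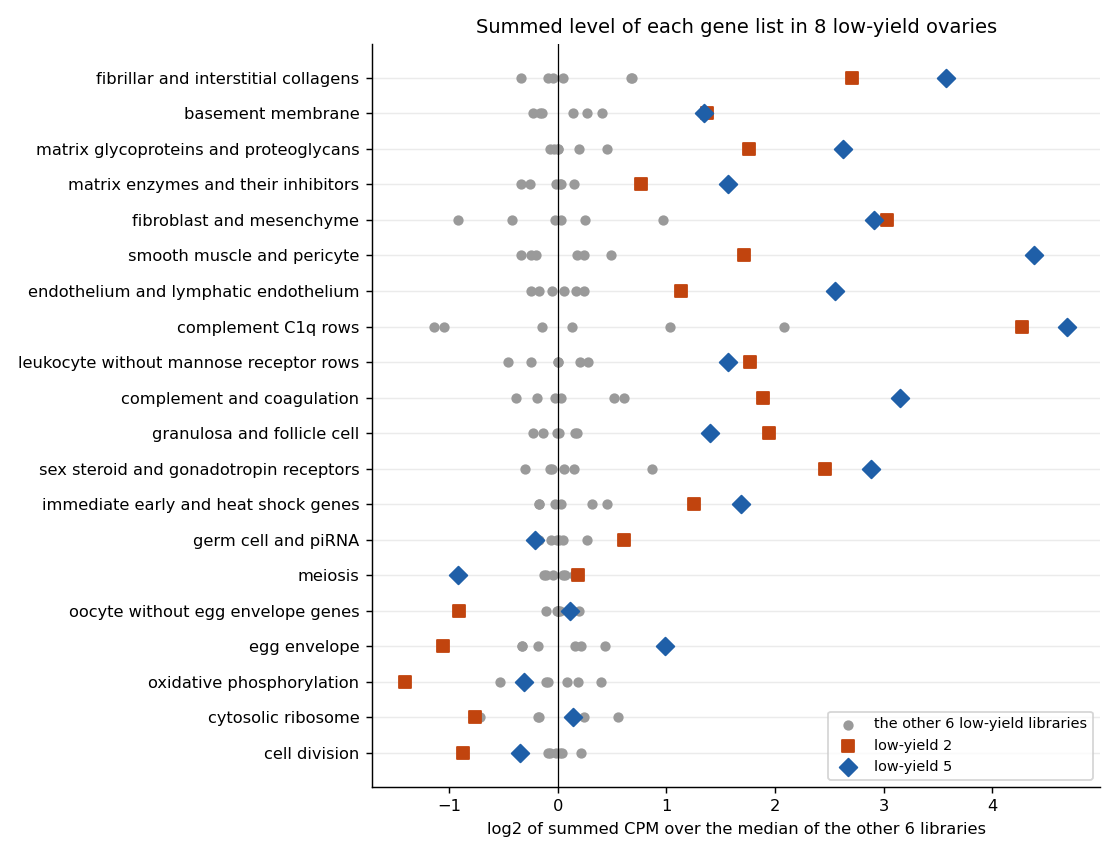
Summed CPM of each gene list in the 8 low-yield libraries, as log2 of its ratio to the median of the other 6 (horizontal axis); circles are the other 6, the square is low-yield 2 and the diamond low-yield 5. Both ovaries lie to the right of all 6 circles from the collagens down to the immediate early genes, and on opposite sides of 0 for the egg envelope.

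Endothelial genes were higher in both for 23 of 43 rows and lower in both for 0, and 19 of the 43 had passed only through the 2 ovaries. Its median member lay 1.27 log2 units from the other 6 in low-yield 2 and 2.56 in low-yield 5. Cadherin-5 (LOC117424661), the junction protein of vessel lining, had 3.86 CPM in low-yield 2 and 18.1 CPM in low-yield 5 against 0.176 to 0.53 CPM. Von Willebrand factor (LOC117415837), the clotting protein stored in endothelium, had 25.2 and 74.6 CPM against 1.48 to 11 CPM. ROBO4 (LOC117397304), an endothelial guidance receptor, had 10.9 and 29.1 CPM against 0.96 to 8.68 CPM. The rows named for VEGF receptors 1 and 2 did not set both ovaries apart from the other 6, and other VEGF receptor rows are not given here. VEGF receptor 2 (LOC117420387) had 5.59 and 4.92 CPM against 13.4 CPM in low-yield 1 and 6.89 CPM in low-yield 3. VEGF receptor 1 (LOC117405676) had 1.66 CPM in low-yield 2, inside the others' range of 0.213 to 2.29 CPM, and 3.31 CPM in low-yield 5, above it. The call for cadherin-5 was lost with FPKM.

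Smooth muscle and pericyte genes were higher in both for 20 of 37 rows and lower in both for 1, and 9 of the 37 had passed only through the 2 ovaries. Set against the other 6, the list had a median log2 difference of 1.26 (low-yield 2) and 2.94 (low-yield 5). The 1 row lower in both, a myosin light chain kinase (LOC117426680), had 2.37 and 2.26 CPM against 3.73 to 27.3 CPM and was named after its values were seen. Aortic smooth muscle actin (LOC117415956) had 101 CPM in low-yield 2 and 1112 CPM in low-yield 5, against 36.8, 20.2, 24.1, 6.7, 30.1 and 51.5 CPM in low-yield 1, 3, 4, 6, 7 and 8. Its second row (acta2) barely met the rule in low-yield 2, at 32.5 CPM against 32.2 CPM in the highest of the other 6, and had 531 CPM in low-yield 5. Myosin-11 (LOC117417975), which forms the thick filament of smooth muscle, had 23.6 and 82.7 CPM against 0.499 to 2.43 CPM. RGS5 (LOC117417038), a signalling regulator of pericytes, had 24.6 and 50.5 CPM against 0.726 to 5.48 CPM.

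Several immune transcripts were higher in both ovaries. All 6 tested rows for complement C1q, a macrophage product, were higher in both, 2 having passed only through the 2 ovaries, and together they held 47.4 and 63.5 CPM against 1.12 to 10.4 CPM. Of the leukocyte list 20 of 59 rows were higher in both and 0 lower, and without its macrophage mannose receptor rows, a count added after the data were seen, 18 of 29. Only through the 2 ovaries had 11 of the 59 rows passed, and 9 of the 29. PTPRC (LOC117401721), the CD45 antigen of all leukocytes, had 21 CPM in low-yield 2 and 15.1 CPM in low-yield 5 against 0.749 to 6.76 CPM. The macrophage growth factor receptor csf1ra had 6.84 and 3.39 CPM against 0.447 to 1.25 CPM, a call lost with FPKM. Its FPKM were 4.07 and 1.09 against 0.157 to 0.504, so both ovaries stayed above the others' range. Of the named genes with the widest shared gaps, 2 act in antigen presentation: beta-2-microglobulin (LOC117398321), the light chain of class I molecules, had 35 and 56.8 CPM against 0 to 1.24 CPM, and tapasin (LOC117434190), which loads peptide on them, 27.2 and 30.5 CPM against 0.333 to 0.746 CPM. The interferon and chemokine list as a whole was higher in both for 4 of 17 rows, 3 of the 17 having passed only through the 2 ovaries. Complement and coagulation genes were higher in both for 10 of 30 rows, and 10 of the 30 tested had passed only through the 2 ovaries. Among the rows higher in both was complement C7 (LOC117973258), a part of the membrane attack complex, at 27.3 and 178 CPM against 0.666 to 6.11 CPM.

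Follicle cell genes were also higher in both, which follows in part from the choice of the 2 libraries by their granulosa transcripts. The granulosa list was higher in both for 12 of 24 rows and lower in both for 0, and 7 of the 24 had passed only through the 2 ovaries. Relative to the other 6, the median member stood at 1.38 log2 units in low-yield 2 and 1.22 in low-yield 5. FOXL2 (LOC117416901), the transcription factor that keeps granulosa identity, had 13 CPM in low-yield 2 and 3.04 CPM in low-yield 5, with 0.434, 0.893, 1.14, 0.812, 0.373 and 1.08 CPM in the other 6. WT1 (LOC117432063), a factor of gonadal somatic cells, had 14 and 9.82 CPM against 0.229 to 1.08 CPM. GATA6 (LOC117399622), another such factor, had 15.6 and 15 CPM against 0.465 to 1.5 CPM. RSPO1 (LOC131699709), a Wnt enhancer of the ovary, had 13.6 and 7.28 CPM against 0.15 to 3.4 CPM. The call for FOXL2 was lost with library size as the scaling and with FPKM, and that for WT1 with FPKM. The anti-Mullerian hormone receptor (LOC131709316) reached 10.6 and 16.5 CPM against 6.17 to 9.84 CPM, under the 2-fold rule, and aromatase (LOC117428169), the estrogen-making enzyme, had no count in low-yield 2 and 0.979 CPM in low-yield 5, within 0 to 1.05 CPM.

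Receptors for sex steroids and gonadotropins were higher in both for 12 of 18 rows and lower for 0, and 4 of the 18 had passed only through the 2 ovaries. Its median member lay 1.88 log2 units from the other 6 in low-yield 2 and 2.20 in low-yield 5. The progesterone receptor (LOC117972621) had 45.2 CPM in low-yield 2 and 88.6 CPM in low-yield 5, against 3.28, 2.4, 4.5, 1.58, 2.43 and 5.98 CPM, and its second row (LOC117406171) 45 and 69.5 CPM against 1.48 to 4.5 CPM. The androgen receptor (LOC117963036) had 40.5 and 28.5 CPM against 2.29 to 6.58 CPM. For the estrogen receptor esr1 the gap was narrow on 1 side, since low-yield 2 at 33.3 CPM lay just above low-yield 8 at 31.6 CPM, while low-yield 5 had 91.7 CPM. The luteinizing hormone receptor lhcgr had 11.1 and 6.8 CPM against 0 to 3.28 CPM, and the receptor for follicle-stimulating hormone (LOC117410409) 1.99 and 2.21 CPM against 0 to 0.601 CPM. The latter call was lost with FPKM, and also when either low-yield 2 or low-yield 5 was left out. In the main scaling each of these ovaries alone exceeded the other 6. A gene under the expression minimum also counts as lost, and whether the minimum or the rescaling removed this row was not tested. The glucocorticoid receptor (LOC117413492) did not separate, at 10.6 and 8.08 CPM within 6.07 to 10.8 CPM. Steroid synthesis genes were higher in both for 3 of 14 rows, and 6 of the 14 tested had passed only through the 2 ovaries.

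Immediate early and heat shock genes, which answer quickly to growth factors and to stress, were higher in both for 20 of 40 rows and lower for 0, and 9 of the 40 had passed only through the 2 ovaries. Set against the other 6, the list had a median log2 difference of 1.37 (low-yield 2) and 1.91 (low-yield 5). JUN (LOC117966277), a subunit of the AP-1 factor, had 41.5 and 53.1 CPM against 4.33 to 19.5 CPM, and the phosphatase DUSP1 (LOC131699670) 30.4 and 86.1 CPM against 4.7 to 18.9 CPM. TGF-beta and BMP signalling genes were higher in both for 19 of 57 rows, Wnt, Notch and Hedgehog genes for 14 of 51, and integrins and adhesion genes for 9 of 33. Of the 57, 51 and 33 rows tested, 9, 14 and 3 had passed only through the 2 ovaries. The latent TGF-beta binding protein 1 (LOC117411023), which stores the growth factor in matrix, had 26.6 and 101 CPM against 1.27 to 6.18 CPM. Among the 12 named genes with the widest shared gap was the de novo DNA methyltransferase DNMT3A (LOC117411349) at 41.9 and 51.9 CPM against 1.26 to 4.75 CPM. Angiopoietin-related protein 4 (LOC117401400), a regulator of lipoprotein lipase, had 29.1 and 47.2 CPM against 0.774 to 2.73 CPM, and intermediate filament protein ON3 (LOC117400896), a filament protein known from goldfish, 197 and 178 CPM against 4.61 to 21 CPM.

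**Figure D3:**
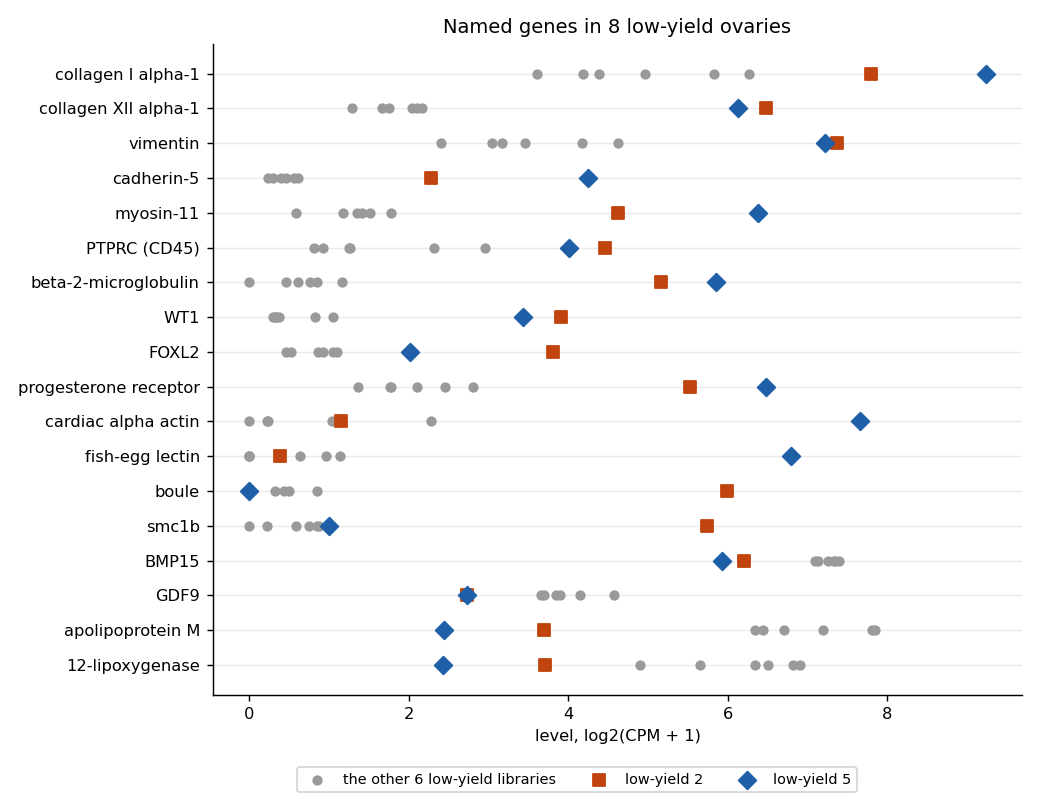
Levels of 18 named genes in the 8 low-yield libraries, on a log2(CPM + 1) axis; circles are the other 6, the square is low-yield 2 and the diamond low-yield 5. From collagen I alpha-1 to the progesterone receptor both ovaries lie right of all circles, cardiac alpha actin and fish-egg lectin are high in low-yield 5 alone, boule and smc1b in low-yield 2 alone, and the last 4 genes are low in both.

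Of the egg envelope list 9 of 268 rows, 3.36%, were lower in both, under the 4.54% over all genes tested. Apolipoprotein M (LOC117433639), a carrier of small lipids, had 2 rows with the widest shared gaps among the named genes lower in both. The first row stood at 12 CPM in low-yield 2 and 4.42 CPM in low-yield 5, with 230.1, 80.5, 145, 86.1, 104 and 224 CPM in low-yield 1, 3, 4, 6, 7 and 8. The second row (LOC117971191) had 6.62 and 1.83 CPM against 41 to 143 CPM. Arachidonate 12-lipoxygenase (LOC117426941), which oxidises arachidonic acid, had 12.1 and 4.37 CPM against 28.9 to 119.5 CPM. Alcohol dehydrogenase 1 (LOC117972433) had 61.2 and 35.2 CPM against 95.9 to 389.6 CPM, and a zona pellucida protein 3 row (LOC131698620), an egg envelope gene, 31.6 and 14.6 CPM against 51.9 to 279 CPM. The protease inhibitor cystatin-B (LOC117972748) had 1.24 and 3.39 CPM against 5.49 to 48.8 CPM.

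An egg envelope row for zona pellucida protein 2 (LOC131705263), named after its values were seen, went the other way, at 86 and 60.3 CPM against 0 to 26.8 CPM.

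Oocyte markers other than envelope genes were lower in both for 4 of 27 rows, 14.8% against 4.54% over all genes tested, and higher for 0. Among genes of 100 CPM and over the share lower in both was 11.1%, and this list was not matched for level. The median member lay -0.75 log2 units from the other 6 in low-yield 2 and -0.51 in low-yield 5. Their summed level was 2111 CPM in low-yield 2, below the others' range of 3698 to 4549 CPM, and 4312 CPM in low-yield 5, inside it. BMP15 (LOC117430234), a growth factor that the oocyte sends to its granulosa cells, had 72.9 CPM in low-yield 2 and 60.1 CPM in low-yield 5, against 139.7, 136, 168, 159.8, 152 and 161 CPM. Its partner GDF9 (LOC117431139) had 5.62 CPM in each ovary against 11.6 to 22.8 CPM. Neither call was kept under library size, median-of-ratios or FPKM scaling. Cell division genes were lower in both for 2 of 40 rows, 5%, near the 4.54% over all genes tested, and higher for 1. Cyclin B2 (LOC117428092), stored in oocytes for the meiotic divisions, had 399 and 228 CPM against 692 to 1272 CPM. Cyclin A2 (LOC117409547) had 328 and 180.1 CPM against 472 to 927 CPM. Both cyclin calls were lost with library size and with FPKM. Yolk uptake genes were lower in both for 2 of 54 rows, 3.70%, under that share over all genes, and higher for 2. Of this list, LRP2 (LOC117412101), an endocytic receptor, was lower in both at 372 and 457 CPM against 626 to 1208 CPM. The LRP2 call was lost with library size, median-of-ratios and FPKM scaling. Its relative LRP1 (LOC117401016), broadly made by stromal cells and macrophages, was higher in both at 35.6 and 49.9 CPM against 4.35 to 9.34 CPM.

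Nuclear genes of oxidative phosphorylation, the respiratory complexes of mitochondria, were lower in both for 16 of 143 rows and higher for 4. The share lower was 11.2%, against 4.54% over all genes tested. Among genes with a mean of 20 to 100 CPM it was 9.29%, and among genes of 100 CPM and over 11.1%. The list was not matched to genes of its own level. With median-of-ratios scaling 8 of 143 rows were lower in both, and 847 of all 27121 genes tested. With library size alone 14 of 143 rows were lower, and 365 of 27341 genes. With FPKM 12 of 136 rows were lower, and 259 of 24767 genes. Among the rows higher in both, ndufv1, a complex I subunit named after its values were seen, had 36 and 38.2 CPM against 4.8 to 16.1 CPM. The Rieske subunit of complex III (LOC117424372) had 67 and 77.9 CPM against 153 to 253 CPM. The list was lower mainly in low-yield 2, with a median log2 difference of -1.39 there and -0.17 in low-yield 5, against -0.04 and -0.06 over all genes tested. The summed level was 3785 CPM in low-yield 2 and 8088 CPM in low-yield 5 against 6927 to 13188 CPM.

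**Figure D4:**
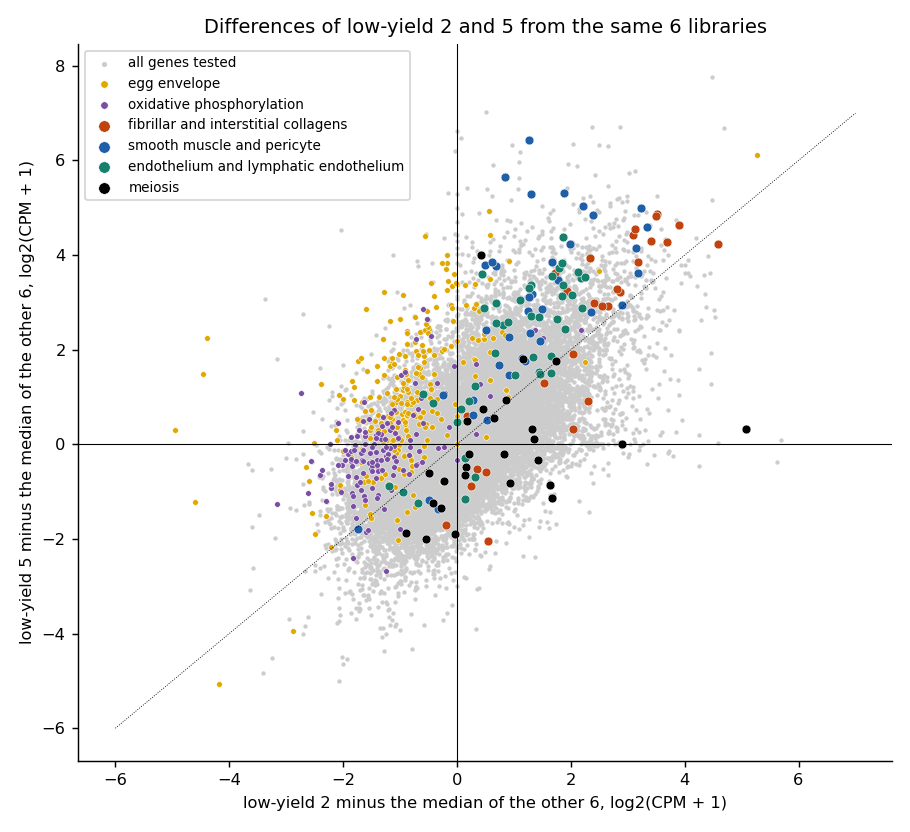
Each gene tested, by the log2(CPM + 1) difference of low-yield 2 (horizontal axis) and of low-yield 5 (vertical axis) from the median of the same other 6 libraries, which both axes share; 6 gene lists are coloured and the dotted line marks equal differences. Most collagens lie in the upper right, most smooth muscle and endothelial genes above the dotted line, egg envelope genes mostly left of 0 and above 0, and several meiosis genes right of 0 and below the line.

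Low-yield 5 was set directly against low-yield 2, 1 library against 1, so these differences have no replicate check. A gene was called when they differed by at least 1 log2 unit and by more than the whole range of the other 6. By this rule 3047 genes, 11.3% of those tested, were higher in low-yield 5 and 2104 genes, 7.77%, higher in low-yield 2. Of these, 704 and 275 had passed the expression minimum only through the 2 ovaries. With library size alone the split turned to 959 against 7516, 11.3% of the calls being higher in low-yield 5 in place of 59.1%, and with FPKM to 769 against 6399. With library size alone the median gene differed by -0.68 log2 units (low-yield 5 minus low-yield 2), against 0.01 after TMM. All 959 genes higher in low-yield 5 with library size alone were among the 3047, and all 2104 genes higher in low-yield 2 after TMM were among the 7516. Those counts are 3.51% and 27.5% of the 27341 genes tested with library size alone. Both scalings are therefore given for the lists below, with the number of rows tested where it differs. The list counts are to be read beside the shares over all genes given here.

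Smooth muscle and pericyte genes were higher there for 19 of 37 rows and higher in low-yield 2 for 0, or 14 against 1 with library size alone, and their summed level was 3024 CPM against 475 CPM in low-yield 2 and 114 to 203 CPM in the other 6. Cardiac alpha actin (LOC117397907), also made by immature smooth muscle in mammals, had 202 CPM in low-yield 5 and 1.22 CPM in low-yield 2. In low-yield 1, 3, 4, 6, 7 and 8 it had 0, 1.14, 0.176, 0.166, 3.87 and 1.05 CPM, so low-yield 2 lay inside the others' range. Integrin alpha-8 (LOC117400760), a smooth muscle matrix receptor, had 94.1 CPM against 5.93 CPM in low-yield 2 and 0.291 to 1.09 CPM in the other 6. The 2 matricellular CCN genes, CYR61 (LOC117404194) and ccn2a, had 87.4 and 63.4 CPM in low-yield 5 against 6.9 and 5.68 CPM in low-yield 2, and the shared call of ccn2a against the other 6 was lost with FPKM. In FPKM ccn2a had 7.17 in low-yield 5 and 1.18 in low-yield 2, both still above the others' range of 0.0543 to 0.328. The matrix protease inhibitor TIMP3 (LOC117415538) had 122 CPM against 11.7 CPM. Of 7 skeletal muscle rows 2 were higher in low-yield 5 and 0 in low-yield 2, or 1 and 0 with library size alone. The list summed to 25.4 CPM in low-yield 5, inside the others' range of 15.7 to 36 CPM, and 13.1 CPM in low-yield 2, below it.

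Endothelial genes followed, with 21 of 43 rows higher in low-yield 5 and 2 in low-yield 2, or 13 and 2 of 42 with library size alone. PECAM1 (LOC117424606), an adhesion molecule of endothelium and platelets, had 27.6 CPM against 3.97 CPM in low-yield 2. EGFL7 (LOC117396885), an endothelial matrix factor, had 30.6 CPM in low-yield 5 while low-yield 2, at 5.39 CPM, was little above the highest of the other 6 at 5.14 CPM. Of the collagens 1 of 27 rows was higher in low-yield 5 and 4 in low-yield 2, or 0 and 6 of 28 with library size alone, and the list median (low-yield 5 minus low-yield 2) was 0.40 after TMM and -0.33 with library size alone. The 1 row was another collagen I alpha-2 row (LOC117426820), named after its values were seen, at 39.4 against 12.4 CPM, and 3 of the 4 were collagen XIV alpha-1. Collagen XIV alpha-1 (LOC117435602), another fibre-associated collagen, had 43 CPM in low-yield 2 and 6.25 CPM in low-yield 5, below all of the other 6 at 20.5 to 30.9 CPM. Collagen IV alpha-1, described above, was also higher in low-yield 2, by 1.21 log2 units.

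**Figure D5:**
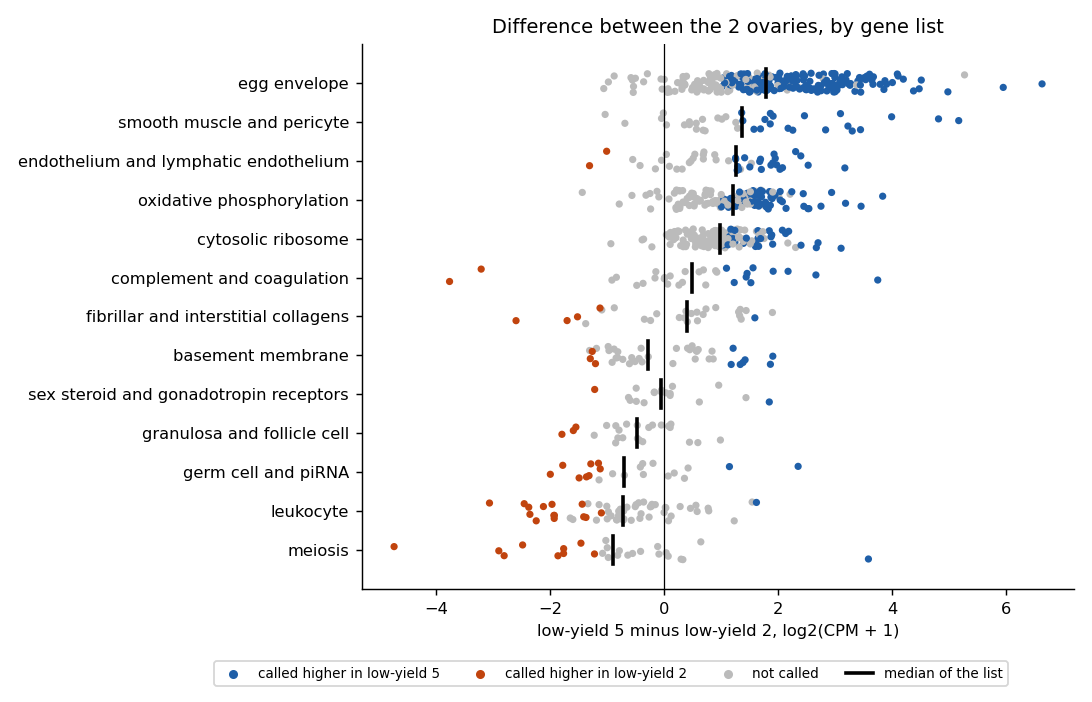
Difference of low-yield 5 minus low-yield 2 in log2(CPM + 1) for each tested member of 13 gene lists (points), coloured where called, with the median of each list as a black bar. Egg envelope, smooth muscle, endothelial and respiratory genes lie mostly to the right, and leukocyte, germ cell and meiosis genes mostly to the left.

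Egg envelope genes, which encode the zona pellucida proteins of the coat, lay in sum on opposite sides of the other 6 in the 2 ovaries. Of 268 rows tested, 179 were higher in low-yield 5 and 0 in low-yield 2, or 100 and 6 with library size alone. Their summed level was 363837 CPM in low-yield 5 and 88259.7 CPM in low-yield 2, above and below the others' range of 146279 to 248642 CPM. Each of the zp1, zp2, zp3, zp4 and zpax subfamilies was higher in sum in low-yield 5 than in low-yield 2, though for zp1 low-yield 2, at 13633 CPM, lay inside the others' range of 12955 to 32590.5 CPM. The sums were 143389 against 30391 CPM for zp3 with 49932 to 99599.5 CPM in the other 6. The zona pellucida AX row LOC117404516 had 17853 CPM in low-yield 5 and 3808 CPM in low-yield 2 against 5051 to 14066 CPM. The zona pellucida 3 row LOC131736991 had 8171 CPM in low-yield 5 and 1244 CPM in low-yield 2 against 1736 to 2649 CPM. Many of these rows share 1 description and may be near copies, so how reads were split among them is uncertain. Without the envelope rows, a count added after the data were seen, 2868 genes were higher in low-yield 5 and 2104 in low-yield 2. ZAR1 (LOC117406578), an oocyte RNA-binding protein of early development, had 1226 and 318 CPM against 708 to 1044 CPM.

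Some genes named for the largest excess of low-yield 5 stood at or under 2.25 CPM in each of the other 7 libraries. A fish-egg lectin row (LOC117432829), an egg protein that binds microbial sugars in fish, had 109.6 CPM there and 0.309 CPM in low-yield 2, with 0 to 1.2 CPM in the other 6. The second lectin row (LOC131723220) had 82.7 against 0.118 CPM. The sulfotransferase SULT2B1 (LOC117434029), which sulfates steroids, had 110.4 against 1.69 CPM. Among transcripts of the mitochondrial genome, ND1 (Q747_mgp13) had 62.9 CPM in low-yield 5, 0.677 CPM in low-yield 2 and 0 to 0.626 CPM in the other 6, and ND2 (Q747_mgp12) 44.7, 0.206 and 0.0279 to 2.25 CPM. Both are subunits of respiratory complex I.

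Nuclear respiratory genes were higher in low-yield 5 for 57 of 143 rows and in low-yield 2 for 0, or 13 and 1 with library size alone. Ribosomal protein genes were higher in low-yield 5 for 28 of 146 rows, or 7 against 1 with library size alone. Over all genes tested 11.3% were higher in low-yield 5 after TMM and 3.51% with library size alone. After TMM the share was 8.27% among genes with a mean of 20 to 100 CPM and 25.7% among those of 100 CPM and over. The respiratory and ribosomal lists stood at 39.9% and 19.2%, and neither was matched for level. The ribosomal list median (low-yield 5 minus low-yield 2) was 0.98 after TMM and 0.18 with library size alone. Over all genes those medians were 0.01 and -0.68. RPL3 (LOC131733482), for instance, had 2340.0 against 626 CPM, a call lost with library size and FPKM. In both lists low-yield 2 was the ovary farther from the others, with medians of -1.39 and -0.63 log2 units from the other 6, against -0.17 and 0.29 in low-yield 5, but with library size alone the ribosomal medians were 0.04 in low-yield 2 and 0.16 in low-yield 5, so the order held for the respiratory list alone.

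Some germ cell and meiosis genes were higher in low-yield 2. Of 26 meiosis rows 9 were higher there and 1 in low-yield 5, or 14 and 1 of 27 with library size alone, and of 21 germ cell and piRNA rows 8 and 2, or 13 and 1. Only through the 2 ovaries had 4 of the 26 and 2 of the 21 rows passed. Boule (LOC117426144), an RNA-binding protein of meiotic germ cells, had 62.7 CPM in low-yield 2 and no count in low-yield 5, where the limit that a count of 0 allows, 3 counts, is 0.0753 CPM and covers counting error only. In low-yield 1, 3, 4, 6, 7 and 8 it had 0.805, 0.251, 0.351, 0.416, 0 and 0 CPM, so low-yield 2 stood alone. The exception among the meiosis rows was the synaptonemal complex protein SYCP1 (LOC117421446), at 21.5 CPM in low-yield 5 and 0.883 CPM in low-yield 2 against 0 to 1.93 CPM. The meiotic cohesin subunit smc1b had 52.5 CPM in low-yield 2, 1 CPM in low-yield 5 and 0 to 0.827 CPM in the other 6. The recombination factor hsf2bp had 18.6 and 0.452 CPM against 4.77 to 12.1 CPM, with low-yield 2 above and low-yield 5 below all of them. Vasa (LOC117409552), the germ-line RNA helicase, had 171 CPM in low-yield 2, within the range of 61.6 to 176 CPM, and 49.1 CPM in low-yield 5, below it. The summed meiosis list was 334 CPM in low-yield 2 and 155 CPM in low-yield 5 against 269 to 326 CPM, so low-yield 2 lay just above and low-yield 5 below that range. Of the Piwi proteins, which bind piRNA against transposons, a PIWIL1 row (LOC117428443) had 164 and 57.7 CPM against 24.4 to 53.8 CPM, which sets both ovaries above the other 6. SYCP1 and PIWIL1 were named after their values were seen.

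Leukocyte genes were higher in low-yield 2 for 14 of 59 rows and in low-yield 5 for 1, or 29 and 1 of 63 with library size alone, and 13 of those 14 were rows described as the macrophage mannose receptor. Without the mannose receptor rows 1 of 29 rows was higher in low-yield 2 and 1 in low-yield 5. Complement C3 (LOC117409788), the central complement protein, had 24.6 CPM in low-yield 2 and 0.879 CPM in low-yield 5 against 0.77 to 6.91 CPM, whereas complement C7, given above, was higher in low-yield 5. Perilipin-1 (LOC117428569), which coats fat cell droplets, had 37 CPM in low-yield 2 and 6.35 CPM in low-yield 5 against 0.88 to 4.55 CPM, though its call as higher in both was lost with FPKM.

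Of 24 granulosa rows 3 were higher in low-yield 2, 12.5% against 7.77% over all genes, and 0 in low-yield 5. With library size alone they were 10 and 0 of 24, where 27.5% of all genes were higher in low-yield 2. The 3 rows were FOXL2, anti-Mullerian hormone and a BMP receptor 1B row (LOC117408649), the last named after its values were seen. It had 3.84 CPM in low-yield 2, inside the others' range of 1.27 to 4.43 CPM, and 0.603 CPM in low-yield 5, below it. Anti-Mullerian hormone (LOC117401371), a granulosa hormone, had 13.9 CPM in low-yield 2 and 4.09 CPM in low-yield 5 against 3.38 to 9.36 CPM. CYP17A1 (LOC117409034), the androgen-making enzyme of theca cells, had 4.31 CPM in low-yield 2, 0.502 CPM in low-yield 5 and 0 to 0.458 CPM in the other 6, a call that FPKM did not give. Genes named for the largest excess of low-yield 2 also included 1 row for elongation factor 1-alpha 1 (LOC117402923). That row had 72.4 against 0.527 CPM, with 0 to 1.03 CPM in the other 6. The cytosolic translation factor list, which includes this gene, summed to 5633 CPM in low-yield 2 and 7466 CPM in low-yield 5. In the other 6 the list summed to 6717 to 8971 CPM. Beta-Ala-His dipeptidase (LOC117435786), a carnosine-splitting enzyme, was also named, at 128 against 4.47 CPM, with 1.23 to 10.9 CPM. In pyruvate dehydrogenase E1 beta (LOC117414211), an entry enzyme of the citrate cycle, the difference lay in low-yield 5, which had 1.96 CPM against 55.1 CPM in low-yield 2 and 32.5 to 80.7 CPM in the other 6.

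Markers of cell types outside the follicle and stroma were also counted. Ciliated cell genes were higher in both for 0 of 11 rows, liver genes for 1 of 11, nerve and glia genes for 2 of 22 and epithelium and mesothelium genes for 1 of 15, with 0, 0, 3 and 3 lower in both. Over all genes tested 8.67% were higher and 4.54% lower in both. The shares lower were 13.6% for nerve and glia and 20% for epithelium and mesothelium. Of the rows of these 4 lists 0, 1, 3 and 0 had passed the minimum only through the 2 ovaries. Erythrocyte and thrombocyte genes were higher in both for 3 of 10 rows, with summed levels of 30.7 CPM in low-yield 2 and 75.6 CPM in low-yield 5 against 34.6 to 74.7 CPM, and rows for the adult globins were not analysed here. Markers of the supporting cell of the testis were higher in both for 1 of 7 rows, and fat cell and lipid storage genes for 5 of 22. Only through the 2 ovaries had 5 of the 10 erythrocyte and thrombocyte rows passed. The same held for 4 of the 7 testis rows and 2 of the 22 fat cell rows.

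Pathways annotated in the deposited table gave shares to set beside the 8.67% and 4.54% over all genes. Of the 2347 genes higher in both, 850 had passed the minimum only through the 2 ovaries. Such genes were not counted by pathway, so the shares higher in both are descriptions only. Among 252 pathways with at least 15 genes tested, the largest shares higher in both were in those named prion diseases (10 of 19 genes), complement and coagulation cascades (12 of 24), NF-kappa B signaling (7 of 15), pertussis (6 of 15) and Jak-STAT signaling (8 of 21). The largest shares lower in both were in sulfur relay (5 of 26), antigen processing and presentation (2 of 15), nitrogen metabolism (3 of 23), cytochrome P450 drug metabolism (6 of 47) and the citrate cycle (9 of 71). Antigen processing and presentation and nitrogen metabolism had as many genes higher in both, 2 and 3. Without rows typed as ribosomal RNA, amoebiasis (3 of 18) came second among the shares lower in both, and the 5 largest shares higher in both were of the same pathways. Vascular smooth muscle contraction had 53 of 207 genes higher in both and cell adhesion molecules 65 of 253, both named after their values were seen. ECM-receptor interaction, also named after its values were seen, had 59 of 172 genes higher in both once rows typed as ribosomal RNA were left out, because such rows filled this pathway in the table.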

How the data were processed

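The study measured poly(A) RNA of whole ovaries in 16 libraries, of which the 8 low-yield ones were used. Deposited whole-number counts per gene, 1 column per library per the file headers, were the values analysed, and the FPKM deposited beside them by the authors served as an alternative. Cutadapt 1.9 is named in the submitters' processing notes; aligner, counter, genome build and annotation and the use of strand in counting were not given in the sources used here. Per the labels' protocol, the second cDNA strand was digested before amplification.

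Counts were scaled by TMM in edgeR 4.0.16 (R 4.3.3) over the 8 libraries and expressed as log2(CPM + 1); genes with a mean of at least 0.5 CPM were kept. Median-of-ratios factors came from DESeq2 1.42.0. No test between the libraries was run, since those compared were chosen from the same values. The members and the gene lists were chosen with earlier results of these data known. Lists matched rows by symbol or, without one, by protein description; 71 of 571 list symbols matched no row and are not analysed here. Named genes were the 12 widest shared gaps and the 10 largest differences between the 2 ovaries in each direction at 5 CPM or more, up to 4 called and 2 uncalled members per list by level, and fixed key genes; others are said to be named after their values were seen. Other settings were library size alone, median-of-ratios, FPKM, pseudocounts of 0.25 and 5, other expression minimums, a 2 log2 unit threshold, the mean of the other 6, and each library left out. The calling rules were tested on simulated data, drawn for all 8 libraries from 1 mean profile with known changes added. Those data lacked the difference in scaling between low-yield 2 and 5, so that test does not bear on it. Depth limits genes of few counts most.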

Additional observations from a re-analysis of the deposited data

Results flagged for a closer look

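For each named gene and list, 1 library was looked for that stood far from the other 7 low-yield libraries. The measure was its gap to the nearest library divided by the whole range of the 8, listed where it exceeded Dixon's critical value at the 95% level. Chance alone marks about 1 in 20 groups, but that rate is no yardstick here, since low-yield 2 and 5 and many of the genes were chosen for their differences; the ratios are descriptions. Of 134 genes and lists examined 33 exceeded it, 21 through low-yield 5, 11 through low-yield 2 and 1 through another library, a split that the choice of libraries favoured.

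Low-yield 5 was far above the other 7, with a ratio of 0.623 for TIMP3 (LOC117415538), 0.538 for PECAM1 (LOC117424606), 0.653 for EGFL7 (LOC117396885), 0.597 for acta2, 0.609 for integrin alpha-8 (LOC117400760) and 0.702 for cardiac alpha actin (LOC117397907). Further ratios with low-yield 5 on top were 0.539 for CYR61 (LOC117404194), 0.597 for ccn2a, 0.599 for ZP3 (LOC131736991), 0.832 for fish-egg lectin (LOC117432829), 0.88 for fish-egg lectin (LOC131723220) and 0.79 for SULT2B1 (LOC117434029). It was also the highest library at 0.697 for ND2 (Q747_mgp12), 0.876 for ND1 (Q747_mgp13), 0.655 for SYCP1 (LOC117421446), 0.565 for the summed smooth muscle and pericyte list and 0.529 for the summed Wnt, Notch and Hedgehog signalling list. Low-yield 5 was far below the other 7 at 0.602 for collagen XIV alpha-1 (LOC117435602), 0.53 for hsf2bp, 0.731 for PDHB (LOC117414211) and 0.716 for the summed meiosis list.

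Low-yield 2 was far above the other 7, with a ratio of 0.536 for FOXL2 (LOC117416901), 0.756 for CYP17A1 (LOC117409034), 0.858 for boule (LOC117426144) and 0.825 for smc1b. It also stood above them at 0.836 for EEF1A1 (LOC117402923), 0.588 for beta-Ala-His dipeptidase (LOC117435786), 0.546 for perilipin-1 (LOC117428569) and 0.553 for PIWIL1 (LOC117428443). Low-yield 2 was far below the other 7 at 0.593 for ZAR1 (LOC117406578), 0.557 for the summed epithelium and mesothelium list and 0.571 for the summed yolk uptake and processing list. The library outside the chosen pair was low-yield 6, whose ciliated cell list was highest with a ratio of 0.532.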

How the results depend on the processing

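The 4 counts over all genes were 2347 higher in both, 1229 lower in both, 3047 higher in low-yield 5 than in 2 and 2104 the reverse. With library size alone 365 were lower in both and 959 against 7516 differed between the 2 ovaries, and with FPKM 259 and 769 against 6399. A pseudocount of 5 gave 602, 687, 1757 and 744 in that order, and a threshold of 2 log2 units 548, 35, 738 and 366. A minimum mean of 5 CPM gave 626 higher in both and 1608 against 1198 between the ovaries. These settings moved the counts by more than 1.5 times. The smaller counts follow by construction from the stricter minimum and threshold, and those higher or lower in both also from the pseudocount of 5. Library size alone leaves out the TMM factors, which by construction moves values up in low-yield 2 and down in low-yield 5. For the rest the cause was not tested. Median-of-ratios scaling, a pseudocount of 0.25, no minimum and the mean of the other 6 kept all 4 within 1.5 times.

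With any 1 library left out, the lowest and highest counts were 2339 and 4967 higher in both and 952 and 3362 lower in both, the highest being without low-yield 2. Without low-yield 5 they were 3888 and 2738. Between the 2 ovaries they ran from 3168 to 3362 higher in low-yield 5 and from 2196 to 2494 higher in low-yield 2, leaving out any of the other 6.

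Of 89 calls on named genes, 80 were kept with library size alone, 86 with median-of-ratios scaling, 73 with FPKM, 73 with a pseudocount of 5 and 54 with the 2 log2 unit threshold. No direction of a called value was reversed under the settings run. No paired analysis was possible because all libraries belong to 1 group and a number in the labels stands for 1 female. Depth limits genes of few counts: a count of 0 allows up to 0.0442 CPM in low-yield 2 and 0.0753 CPM in low-yield 5, counting error only.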

Other observations

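Histone rows, chosen after the values were seen, set the 2 ovaries apart from each other. Of 107 core and linker histone rows tested, 69 were higher in low-yield 5 than in low-yield 2 and 0 the reverse, while 0 were higher and 7 lower in both than in the other 6. Over all genes tested 11.3% were higher in low-yield 5, 7.77% higher in low-yield 2, 8.67% higher in both and 4.54% lower in both. Histone rows were counted after TMM scaling only. Their summed level was 944 CPM in low-yield 2 and 3049 CPM in low-yield 5, against 2030.3 to 3968 CPM in the other 6, so low-yield 2 lay below all of them and low-yield 5 among them.

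Antibody and T cell receptor V gene segments, also chosen after the values were seen, summed to 37 CPM in low-yield 2 and 8.54 CPM in low-yield 5, against 1.17 to 6.59 CPM in the other 6, but 2 of these 72 rows met the expression minimum. The wider set of 97 immunoglobulin and receptor segment rows, 10 of which met it, summed to 169 CPM in low-yield 2 and 163 CPM in low-yield 5, against 16.7 to 84.4 CPM. Rows typed as ribosomal RNA were higher in low-yield 5 than in low-yield 2 for 302 of 360 tested, and 6 were higher in both than in the other 6. The matching shares over all genes tested were 11.3% and 8.67%, and these rows too were counted after TMM scaling only.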
